A study of Mus musculus with 9 samples.

Results

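Subplate neurons are among the first neurons made in the cerebral cortex and lie below the cortical plate, where they guide thalamic axons and help to set up early circuits. In the mouse most of them are born before the upper and middle layers of the cortex, and a part of them persists after birth as layer 6b. Genes used to recognise them include secreted and matrix proteins, an enzyme and receptors, and several of these genes are also used by other cells. The 5 subplate markers described here are Nxph4, Ccn2, Moxd1, Nr4a2 and Lpar1. They were chosen by symbol from the 53379 gene rows of a deposited count table, and each of the 5 symbols matched 1 row. All 5 were among the 17760 genes tested, although Moxd1 passed the filter on low counts only through the group in which it was highest.

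The RNA came from GFP+ cells of the C57BL/6 mouse cortex. Hairpins were electroporated in utero at E13.5, and GFP+ cells were sorted by FACS from tissue taken at E15.5. One group received a mix of 3 short hairpin RNAs (shRNAs) against circSlc45a4, a circular RNA of the Slc45a4 gene, a second received a mix of 2 shRNAs that target the linear mRNA of Slc45a4, and the controls received 1 scrambled hairpin (scramble). Each group had 3 libraries, labelled as biological replicates, and the hairpins of a mix cannot be told apart. The cells of all 9 libraries share the electroporation, the GFP label and the sort. The sources used here do not say how many embryos went into a library.

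Total counts ranged from 21073174 to 45469298 per library, and the 3 scramble libraries were the lowest, at 21073174, 30788165 and 31833779. The linear Slc45a4 transcript, read after polyA selection, averaged 16.4 ± 2.77 CPM (counts scaled to 1000000 reads of the library) after Slc45a4 mRNA knockdown and 33.0 ± 1.41 CPM in scramble (SD, n = 3 each). The log2 difference was -1.01 ± 0.12 (SE; adjusted p = 1.08e-04). Its mean in the circSlc45a4 knockdown was 25.1 ± 0.38 CPM, lower than scramble by a log2 difference of -0.39 ± 0.12 (adjusted p = 0.0245). A circular RNA has no polyA tail, so the level of circSlc45a4 was not read. Xist, a noncoding RNA that coats the inactive X, differed between the groups. It stood between 264 and 635 CPM in the circSlc45a4 knockdown, at 1550, 637 and 0.194 CPM in replicates 1, 2 and 3 of the Slc45a4 mRNA knockdown, and at most at 0.239 CPM in scramble. Scramble held no library with Xist, so Xist and the knockdowns can be told apart only through replicate 3 of the Slc45a4 mRNA knockdown. For the markers, their related genes and their neighbours, calls that ended when the Xist level entered the fit as a covariate are named beside their values.

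Nxph4, Ccn2 and Moxd1 were higher in the circSlc45a4 knockdown than in scramble, and Nr4a2 and Lpar1 did not pass the test. Moxd1 alone of the 5 passed the test after Slc45a4 mRNA knockdown. With 3 of 5 markers called higher in the circSlc45a4 knockdown and 0 lower, the count stood against 27.1% of all genes called in that comparison, made up of 14.1% called higher and 13% called lower. Of the calls in that comparison 52.1% were higher, and 42.3% with upper-quartile scaling. After Slc45a4 mRNA knockdown the count was 1 higher and 0 lower, against 18% of all genes called, made up of 8.92% called higher and 9.09% called lower. Set directly against the Slc45a4 mRNA knockdown, the circSlc45a4 knockdown had 2 of 5 markers higher and 0 lower, where 26.1% of all genes were called, 13.8% higher and 12.3% lower. Of the calls in that direct comparison 52.8% were higher, and 42.1% with upper-quartile scaling. A call is an adjusted p under 0.05 in the quasi-likelihood test of edgeR, adjusted by Benjamini-Hochberg over all genes tested. Moxd1 had to be high in a knockdown to be tested at all, so its place in these counts is no support for them. In sorted bulk cells, more cells of a type and more RNA per cell cannot be told apart. The median log2 fold change of the 5 markers was 1.31, 0.09 and 1.04 in the 3 comparisons in that order, where the median of all genes was -0.01, 0.01 and -0.02. The medians against scramble were the same with Moxd1 set to its lower bound, and the third was the fitted value of Moxd1 itself, which did not pass the test. Over the other 4 markers the medians were 0.87, 0.09 and 1.00. The comparisons share libraries, so their values are given side by side and not as independent repeats.

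**Figure D1:**
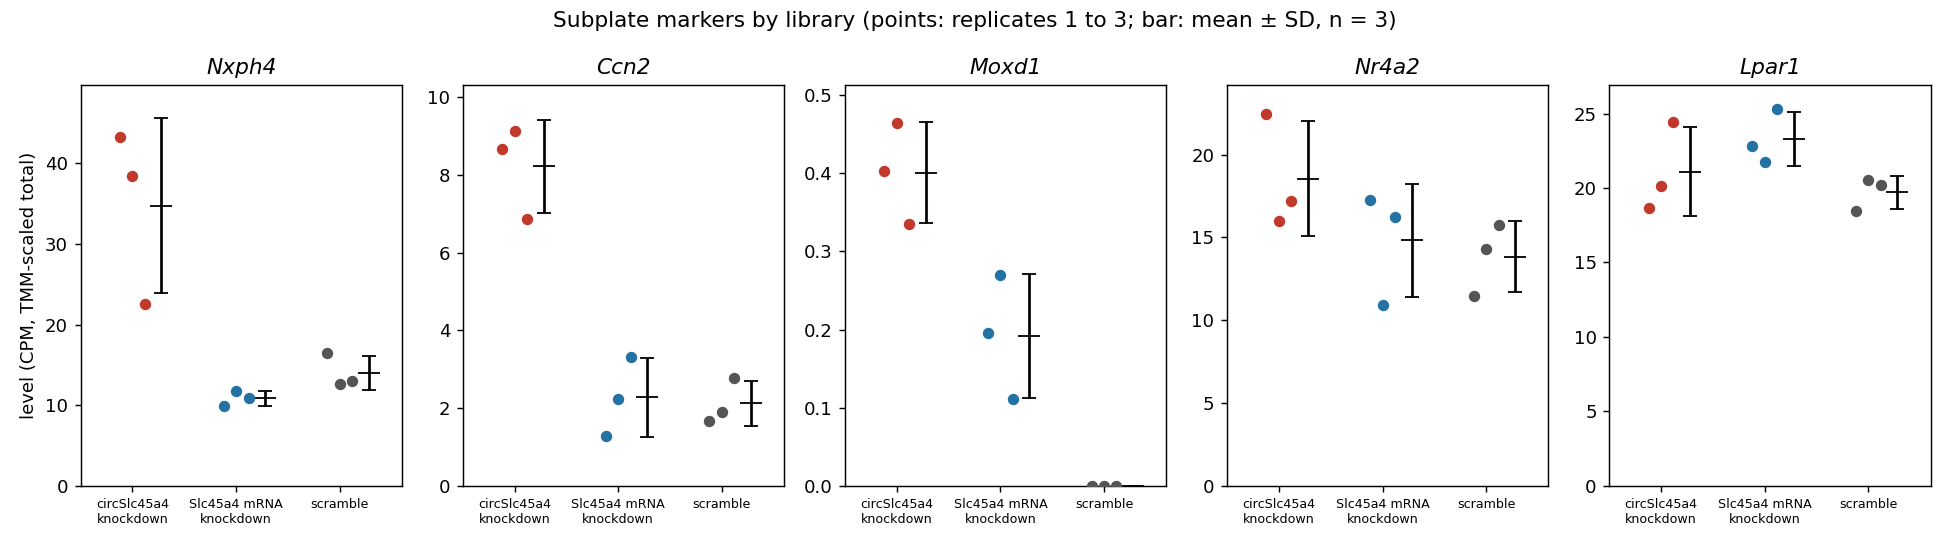
Level of each subplate marker (CPM on the vertical axis, from 0) in the circSlc45a4 knockdown, the Slc45a4 mRNA knockdown and scramble; points are libraries and bars are mean ± SD (n = 3). Nxph4 (22.6 to 43.2 CPM) and Ccn2 (6.86 to 9.13 CPM) lie above every other library in the circSlc45a4 knockdown, and Moxd1 is at 0 in all 3 scramble libraries.

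Nxph4 encodes a neurexophilin, a small secreted glycoprotein of a family that binds alpha-neurexins at synapses. The gene (ENSMUSG00000040258.6) lies on the minus strand of chromosome 10, positions 127525473 to 127534559 (GRCm38), with 1675 exonic bases. It stood at 43.2, 38.5 and 22.6 CPM in replicates 1, 2 and 3 of the circSlc45a4 knockdown, at 9.93, 11.7 and 10.9 CPM after Slc45a4 mRNA knockdown, and at 16.4, 12.6 and 13.1 CPM in scramble. Every library of the circSlc45a4 knockdown lay above every other library, and its replicate 3 was the lowest of the 3. Against scramble, 43.9% of all genes had groups that did not overlap in either direction. The counts behind these values were large, between 344 and 1933 reads per library. The mean was 34.8 ± 10.8 CPM in the circSlc45a4 knockdown and 14.0 ± 2.11 CPM in scramble (SD, n = 3 each). The log2 difference was 1.31 ± 0.20 (SE; adjusted p = 3.59e-04). The Slc45a4 mRNA knockdown averaged 10.8 ± 0.899 CPM, and its 3 libraries lay below all 3 of scramble. Such a lack of overlap, in either direction, was found in 36.1% of all genes of that comparison, and the difference of -0.37 ± 0.20 did not pass the test (adjusted p = 0.237). Set directly against each other, the circSlc45a4 knockdown exceeded the Slc45a4 mRNA knockdown by 1.68 ± 0.20 on the log2 scale (adjusted p = 8.35e-05).

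Relatives and partners of Nxph4 included other neurexophilins and a neurexin, a presynaptic receptor. The neurexin gene Nrxn2 was lower in the circSlc45a4 knockdown, at 62.7 ± 4.19 CPM against 97.4 ± 8.70 CPM in scramble (-0.63 ± 0.16, adjusted p = 0.00876), a call that ended with the Xist covariate (-0.48, adjusted p = 0.301). Nxph3, a neurexophilin that is itself known from subplate and layer 6b, averaged 7.90 ± 3.14, 9.38 ± 4.66 and 6.08 ± 1.64 CPM in the circSlc45a4 knockdown, the Slc45a4 mRNA knockdown and scramble, and its groups overlapped. Nxph1 averaged 0.382, 0.194 and 0.489 CPM in those groups and did not pass the test, and Nxph2 was too low to test.

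Ccn2, also known as connective tissue growth factor, encodes a secreted matricellular protein and is a widely used target of the YAP and TAZ coactivators, which act through TEAD factors. The gene (ENSMUSG00000019997.11) lies on the plus strand of chromosome 10, positions 24595442 to 24598683, with 2861 exonic bases. It was read at 8.68, 9.13 and 6.86 CPM in the circSlc45a4 knockdown, at 1.28, 2.24 and 3.32 CPM after Slc45a4 mRNA knockdown and at 1.67, 1.91 and 2.78 CPM in scramble. The lowest library of the circSlc45a4 knockdown was above the highest of the other groups, while the Slc45a4 mRNA knockdown and scramble overlapped. In the circSlc45a4 knockdown 22.6% of all genes lay wholly above scramble and 20.3% wholly above the Slc45a4 mRNA knockdown. Ccn2 averaged 8.22 ± 1.20 CPM in the circSlc45a4 knockdown and 2.12 ± 0.58 CPM in scramble (SD, n = 3 each). The log2 difference was 1.94 ± 0.30 (SE; adjusted p = 4.11e-04). After Slc45a4 mRNA knockdown it averaged 2.28 ± 1.02 CPM, a difference of 0.09 ± 0.31 (adjusted p = 0.874), which turned to -0.28 without replicate 3 of that knockdown and to -0.04 without scramble replicate 1. The direct difference between the knockdowns was 1.85 ± 0.29 (adjusted p = 5.96e-04).

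An antisense transcript, Gm15270 (minus strand, positions 24549441 to 24597108), overlaps the body of Ccn2. The strand setting of the counting is not given in the sources used here, so reads of this pair cannot be told apart with certainty. Gm15270 averaged 0.566 CPM in the circSlc45a4 knockdown, 0.0364 CPM after Slc45a4 mRNA knockdown and 0.0736 CPM in scramble, fewer reads than Ccn2 in each group. It was higher in the circSlc45a4 knockdown than in scramble (log2 fold change 2.92 ± 0.71, adjusted p = 0.00833), and this call ended with the Xist covariate (3.78, adjusted p = 0.186) and in the absence of scramble replicate 2 (2.55, adjusted p = 0.0549). Its reads were 32, 22 and 17 in the circSlc45a4 knockdown, 0, 2 and 2 after Slc45a4 mRNA knockdown and 2, 1 and 3 in scramble. Gm15270 had to be high in the circSlc45a4 knockdown to be tested at all, so its call is no support for the change of Ccn2.

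Of the 5 other CCN genes, 3 were tested. Of these, 2 were higher in the circSlc45a4 knockdown than in scramble and 0 were lower, at a median log2 fold change of 1.01, and 0 passed the test in either direction after Slc45a4 mRNA knockdown (-0.18), where 1 was lower without scramble replicate 1. Over all genes 27.1% and 18% were called in those comparisons. Ccn1, a matricellular relative that is likewise a YAP target, averaged 51.1 ± 2.22 CPM in the circSlc45a4 knockdown and 25.2 ± 7.75 CPM in scramble (1.01 ± 0.18, adjusted p = 0.00117). Ccn4, known as a Wnt-induced gene, averaged 2.34 ± 0.588 CPM and 0.527 ± 0.363 CPM in those groups (2.21 ± 0.46, adjusted p = 0.00316). The call of Ccn4 ended with the Xist covariate (2.24, adjusted p = 0.0999), and those of Ccn1 and Ccn2 held. Both relatives exceeded the Slc45a4 mRNA knockdown in the direct comparison, Ccn1 by 1.19 and Ccn4 by 1.94 on the log2 scale.

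The wider list of YAP and TAZ coactivators, TEAD factors, LATS kinases and common targets held 16 genes, 14 of them tested. In the circSlc45a4 knockdown 3 were higher and 1 lower than in scramble, with a median log2 fold change of 0.16, and after Slc45a4 mRNA knockdown 2 were higher and 1 lower, with a median of 0.11. Over all genes 27.1% and 18% were called in those comparisons, so the counts of this list are near the shares of all genes. The counts also depended on single libraries. In the circSlc45a4 knockdown 2 to 4 were higher without any one library, and the one lower call was lost without any one circSlc45a4 knockdown library or scramble replicate 2 or 3. After Slc45a4 mRNA knockdown 0 were higher without its replicate 3 or scramble replicate 2, and 1 without its replicate 1 or scramble replicate 1 or 3. Axl, a receptor kinase used as a YAP target, averaged 26.0 ± 0.899 CPM in the circSlc45a4 knockdown and 11.7 ± 1.84 CPM in scramble (1.15 ± 0.14, adjusted p = 5.13e-05). Lats1, a kinase that restrains YAP, was also higher, at 145 ± 3.90 CPM against 91.1 ± 1.55 CPM in scramble (0.67 ± 0.07, adjusted p = 1.52e-05). Yap1 itself averaged 28.5 ± 2.01 CPM in the circSlc45a4 knockdown and 24.5 ± 4.06 CPM in scramble and did not pass the test (adjusted p = 0.383). After Slc45a4 mRNA knockdown Crim1, a membrane protein listed among YAP targets, fell to 31.0 ± 9.29 CPM, against 58.4 ± 12.9 CPM in scramble (-0.91 ± 0.19, adjusted p = 0.00587), a call that ended with the Xist covariate (-0.61, adjusted p = 0.236). Ankrd1, another common target, had 0 counts in all 9 libraries.

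Moxd1 encodes a copper-dependent monooxygenase related to dopamine beta-hydroxylase, and its substrate is not settled. The gene (ENSMUSG00000020000.7) lies on the plus strand of chromosome 10, positions 24223517 to 24302790, with 3198 exonic bases. It was read 18, 17 and 15 times in the circSlc45a4 knockdown, 7, 10 and 4 times after Slc45a4 mRNA knockdown, and 0 times in each scramble library. In CPM these counts were 0.402, 0.465 and 0.335 in the circSlc45a4 knockdown and 0.195, 0.270 and 0.111 after Slc45a4 mRNA knockdown. The 3 groups did not overlap. Against scramble, 43.9% of all genes had no overlap in the circSlc45a4 knockdown and 36.1% in the Slc45a4 mRNA knockdown. A count of 0 allows up to 3 reads, which is 0.0926 to 0.143 CPM in the scramble libraries, and this limit covers counting error only. Against the mean of that limit over the 3 scramble libraries, mean Moxd1 was at least 3.61-fold higher in the circSlc45a4 knockdown and at least 1.73-fold higher after Slc45a4 mRNA knockdown. These bounds leave out the counting error of the knockdown reads and were not themselves tested. The fitted differences from scramble, which are no bounds, were called in both knockdowns (adjusted p = 0.00144 and 0.0104). With the Xist covariate both calls ended (adjusted p = 0.0571 and 0.129).

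The lowest library of the Slc45a4 mRNA knockdown, replicate 3, is also the one with Xist as low as in scramble, and it held 4 Moxd1 reads. Its value of 0.111 CPM lies within the range that 0 counts allow in scramble, so that single library cannot be set apart from scramble at this depth. The direct difference between the knockdowns was 1.04 ± 0.58 on the log2 scale and did not pass the test (adjusted p = 0.212), although the groups did not overlap, as was the case for 40.1% of all genes in that comparison and, with the circSlc45a4 knockdown higher, for 20.3%. Moxd1 was 1 of 6 tested genes with 0 counts in every scramble library, and 3 of these 6 had counts in all 6 knockdown libraries. Among all gene rows, 28225 had 0 counts in all 3 scramble libraries, and 30 of these had counts in all 6 knockdown libraries. Rows at 0 in scramble with at least 15 reads in every circSlc45a4 knockdown library, the lowest Moxd1 count there, numbered 5. Moxd1 is among them by the choice of that cutoff, so the number does not measure how rare its pattern is. The scramble libraries were also the shallowest, so a count of 0 there sets a weaker limit.

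Dbh and Moxd2, the closest enzymes in the list of related monooxygenases, had 0 counts in all libraries. Pam, which amidates peptide hormones, was read at 206 ± 26.8 CPM in the circSlc45a4 knockdown, 186 ± 7.44 CPM after Slc45a4 mRNA knockdown and 254 ± 21.2 CPM in scramble. It was lower after Slc45a4 mRNA knockdown (-0.45 ± 0.10, adjusted p = 0.00628; -0.45 and adjusted p = 0.114 with the Xist covariate). After circSlc45a4 knockdown its difference of -0.30 ± 0.10 (adjusted p = 0.0334) did not pass the test with the covariate (-0.30, adjusted p = 0.310) or without circSlc45a4 knockdown replicate 2 or 3 or scramble replicate 2 or 3 (-0.28 to -0.23, adjusted p between 0.0978 and 0.141).

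**Figure D2:**
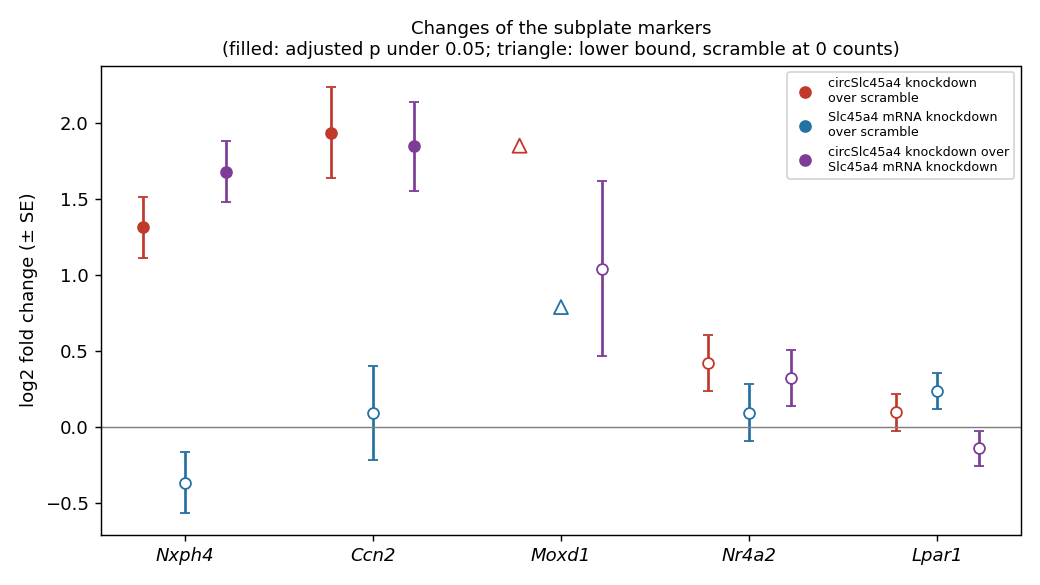
Log2 fold change (± SE, vertical axis) of the 5 markers in the circSlc45a4 knockdown over scramble, the Slc45a4 mRNA knockdown over scramble and the circSlc45a4 knockdown over the Slc45a4 mRNA knockdown; filled points have an adjusted p under 0.05 and triangles are lower bounds for Moxd1. Nxph4 and Ccn2 lie between 1.31 and 1.94 in the comparisons of the circSlc45a4 knockdown and near or below 0 in the Slc45a4 mRNA knockdown over scramble.

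Nr4a2, or Nurr1, is an orphan nuclear receptor needed for midbrain dopamine neurons, marks subplate and claustrum neurons, and belongs to the immediate early genes, which neurons switch on after activity through the cAMP response element (CRE) and the factor CREB. The gene (ENSMUSG00000026826.13) lies on the minus strand of chromosome 2, positions 57106830 to 57124003, with 4059 exonic bases. A RefSeq promoter window (GRCm38.p6), 250 bases before to 50 bases after a start site, was at hand for Moxd1, Nr4a2 and Lpar1, with 3 windows for Lpar1, and the windows of Nxph4 and Ccn2 were not used here. Each was searched on both strands for the CRE half-site TGACG, the TEAD site GGAATG, the TATA box TATAAA and the NR4A response element AAAGGTCA. These are found in 20.8%, 14.7%, 13.6% and 1.51% of the 32851 windows of all genes. The window of Nr4a2 held 4 CRE half-sites, at positions -200 and -144 (minus strand, read as CGTCA) and -123 and -111 (plus strand) from the start site, and 1 TATA box at -164 (minus strand, read as TTTATA). At least 4 half-sites were found in 76 windows, or 0.231%. The windows of Moxd1 and Lpar1 held no match to any of the 4 motifs, which says only that these letters are not in those 300 bases. The 250 bases before the start sites of Nr4a2 (chr2:57124004-57124253, minus strand), the marker known as an immediate early gene, and of Moxd1 (chr10:24223267-24223516, plus strand), the marker at 0 counts in scramble, are printed 5′ to 3′ with the CRE half-sites in capitals.
Nr4a2: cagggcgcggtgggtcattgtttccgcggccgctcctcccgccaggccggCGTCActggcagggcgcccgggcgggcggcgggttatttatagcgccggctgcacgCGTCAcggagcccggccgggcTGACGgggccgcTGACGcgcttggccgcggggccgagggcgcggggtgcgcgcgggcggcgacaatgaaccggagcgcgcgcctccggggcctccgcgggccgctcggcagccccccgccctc
Moxd1: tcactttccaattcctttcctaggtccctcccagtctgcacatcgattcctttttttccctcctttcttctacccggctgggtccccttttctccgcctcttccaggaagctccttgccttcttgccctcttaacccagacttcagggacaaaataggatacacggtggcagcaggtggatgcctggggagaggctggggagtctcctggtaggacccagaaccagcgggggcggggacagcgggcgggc
The GC content was 81.7% in the Nr4a2 window and 61.7% in the Moxd1 window.

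Nr4a2 was read at 22.5, 16.0 and 17.2 CPM in the circSlc45a4 knockdown, at 17.3, 10.9 and 16.3 CPM after Slc45a4 mRNA knockdown and at 11.5, 14.3 and 15.7 CPM in scramble. The circSlc45a4 knockdown lay above scramble in every library, by a narrow margin, and the Slc45a4 mRNA knockdown overlapped both. Groups that did not overlap with the circSlc45a4 knockdown higher made up 22.6% of all genes in that comparison. The log2 fold change was 0.42 ± 0.19 (SE) in the circSlc45a4 knockdown (adjusted p = 0.113) and 0.09 ± 0.19 after Slc45a4 mRNA knockdown (adjusted p = 0.771), and neither passed the test. The difference after Slc45a4 mRNA knockdown turned to -0.03 without its replicate 1 and to -0.02 without scramble replicate 1. Without the filter on low counts the difference in the circSlc45a4 knockdown was called (0.42, adjusted p = 0.0239). The direct difference between the knockdowns was 0.32 ± 0.18 (adjusted p = 0.217).

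Among the other NR4A receptors, Nr4a3 was higher in both knockdowns, at 15.7 ± 2.18 CPM in the circSlc45a4 knockdown and 12.7 ± 1.46 CPM after Slc45a4 mRNA knockdown, against 8.54 ± 0.228 CPM in scramble. Its log2 fold changes were 0.87 ± 0.14 (adjusted p = 4.70e-04) and 0.58 ± 0.14 (adjusted p = 0.0114), and the second call ended with the Xist covariate (0.57, adjusted p = 0.142) and without scramble replicate 2 (0.56, adjusted p = 0.0535). Nr4a1 averaged 6.89 ± 1.02 CPM in the circSlc45a4 knockdown, 7.57 ± 0.758 CPM after Slc45a4 mRNA knockdown and 7.68 ± 0.757 CPM in scramble, and its groups overlapped. Rxra, a retinoid X receptor with which Nr4a2 can pair, was lower in the circSlc45a4 knockdown, at 8.83 ± 0.928 CPM against 16.9 ± 1.89 CPM in scramble (-0.94 ± 0.15, adjusted p = 4.76e-04; -0.61 and adjusted p = 0.122 with the Xist covariate). Over the list of NR4A and RXR genes, 4 of 5 were tested, and 1 was higher and 1 lower in each knockdown, the lower one of the Slc45a4 mRNA knockdown being Rxra again (-0.53 ± 0.15, adjusted p = 0.0247). That last call ended with the Xist covariate (-0.29, adjusted p = 0.494) and without Slc45a4 mRNA knockdown replicate 1 or 2 or scramble replicate 2 or 3 (-0.54 to -0.41, adjusted p between 0.0533 and 0.123). Against scramble 27.1% of all genes were called in the circSlc45a4 knockdown and 18% in the Slc45a4 mRNA knockdown.

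Other immediate early genes numbered 14, with 12 tested. In the circSlc45a4 knockdown 3 were higher than in scramble and 0 lower, at a median log2 fold change of 0.17, and after Slc45a4 mRNA knockdown 0 were higher and 1 lower, at a median of -0.03. Over all genes 27.1% and 18% were called in those comparisons. Of the immediate early genes 1 was lower in the circSlc45a4 knockdown without its replicate 1, and 1 was higher after Slc45a4 mRNA knockdown without its replicate 2. Dusp1, a phosphatase that ends MAP kinase signalling, averaged 98.6 ± 12.3 CPM in the circSlc45a4 knockdown and 74.1 ± 7.12 CPM in scramble (0.41 ± 0.10, adjusted p = 0.00838), a call that ended with the Xist covariate (0.40, adjusted p = 0.179). Jun, a subunit of AP-1, averaged 177 ± 21.2 CPM and 122 ± 15.6 CPM in those groups (0.53 ± 0.13, adjusted p = 0.00979), and its call ended with the covariate (0.53, adjusted p = 0.175) and without circSlc45a4 knockdown replicate 1 (0.43, adjusted p = 0.0511). Btg2, which restrains progenitor division, was lower after Slc45a4 mRNA knockdown, at 149 ± 13.8 CPM against 260 ± 36.3 CPM in scramble (-0.80 ± 0.12, adjusted p = 7.05e-04). Fos, the usual readout of activity, averaged 18.2 ± 1.68 CPM in the circSlc45a4 knockdown, 23.3 ± 11.6 CPM after Slc45a4 mRNA knockdown and 19.2 ± 7.37 CPM in scramble and did not pass the test in either knockdown.

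Lpar1 encodes a receptor for lysophosphatidic acid (LPA) that was first cloned from the ventricular zone of the cortex, and it is carried by progenitors as well as by subplate neurons. The gene (ENSMUSG00000038668.14) lies on the minus strand of chromosome 4, positions 58435255 to 58553898, with 4289 exonic bases. It was read at 18.7, 20.1 and 24.5 CPM in the circSlc45a4 knockdown, at 22.8, 21.8 and 25.3 CPM after Slc45a4 mRNA knockdown and at 18.5, 20.5 and 20.2 CPM in scramble. The circSlc45a4 knockdown overlapped both other groups, and the Slc45a4 mRNA knockdown lay above scramble in every library. The log2 fold change was 0.10 ± 0.12 (SE) in the circSlc45a4 knockdown (adjusted p = 0.596) and 0.24 ± 0.12 after Slc45a4 mRNA knockdown (adjusted p = 0.191). Groups that did not overlap with the Slc45a4 mRNA knockdown higher made up 17.7% of all genes in that comparison. The difference in the circSlc45a4 knockdown turned to -0.02 without its replicate 3. The direct difference was -0.14 ± 0.12 (adjusted p = 0.420). Lpar1 was the marker with the smallest spread in scramble, with an SD of 5.64% of its mean.

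LPA signalling was followed through 14 other genes (LPA receptors, the LPA-producing enzyme and lipid phosphatases with their relatives), of which 13 were tested. After circSlc45a4 knockdown 1 was higher and 3 lower than in scramble, at a median log2 fold change of -0.13, and after Slc45a4 mRNA knockdown 2 were higher and 2 lower, at a median of 0.18. Over all genes 27.1% and 18% were called in those comparisons. Of the LPA genes 2 were higher in the circSlc45a4 knockdown without scramble replicate 1. After Slc45a4 mRNA knockdown 1 was lower without its replicate 1 or scramble replicate 2. Enpp2, or autotaxin, the secreted enzyme that makes LPA, was lower in both, at 1.51 ± 0.217 CPM in the circSlc45a4 knockdown and 1.67 ± 0.251 CPM after Slc45a4 mRNA knockdown, against 3.91 ± 0.551 CPM in scramble. Its log2 fold changes were -1.37 ± 0.24 (adjusted p = 0.00106) and -1.23 ± 0.24 (adjusted p = 0.00367), and both calls held with the Xist covariate. Plpp3, a membrane phosphatase that degrades LPA, was higher in the circSlc45a4 knockdown, at 89.2 ± 3.79 CPM against 59.6 ± 8.54 CPM in scramble (0.58 ± 0.10, adjusted p = 0.00129). Plppr2, a relative of those phosphatases, was lower there, at 36.1 ± 1.88 CPM against 62.5 ± 5.54 CPM (-0.79 ± 0.14, adjusted p = 8.56e-04; -0.65 and adjusted p = 0.104 with the Xist covariate). Lpar2, the next LPA receptor, was higher after Slc45a4 mRNA knockdown, at 22.4 ± 2.54 CPM against 16.2 ± 1.00 CPM in scramble (0.47 ± 0.11, adjusted p = 0.00961). Plpp2 was higher there too (1.15 ± 0.26, adjusted p = 0.00801; 1.28 and adjusted p = 0.0637 with the covariate).

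Set per length, as mean CPM per kilobase of exon, the order of the 5 markers in scramble was Nxph4 (8.37), Lpar1 (4.60), Nr4a2 (3.41), Ccn2 (0.741) and Moxd1 (0), and the ranges of neighbours in this order did not overlap. The order was the same after Slc45a4 mRNA knockdown, at 6.47, 5.43, 3.65, 0.798 and 0.0600 CPM per kilobase, where the lowest Nxph4 value (5.93) and the highest Lpar1 value (5.90) nearly met. In the circSlc45a4 knockdown the levels were 20.8, 4.92, 4.57, 2.87 and 0.125 CPM per kilobase in the same order, and Lpar1 and Nr4a2 overlapped. By this measure Nxph4 stood above 81.9% of the genes tested in the circSlc45a4 knockdown, 56.9% after Slc45a4 mRNA knockdown and 62.9% in scramble. Ccn2 stood above 40.3%, 22.5% and 21.6% of genes in those groups, and Moxd1 above at most 6.00% in any group.

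A further 14 genes reported in subplate or layer 6b neurons of the mouse served as a second list, with 12 tested. After circSlc45a4 knockdown 5 were higher and 2 lower than in scramble, at a median log2 fold change of 0.41, and after Slc45a4 mRNA knockdown 2 were higher and 2 lower, at a median of 0.03. Over all genes 27.1% and 18% were called in those comparisons. Pde1a, a calmodulin-dependent phosphodiesterase, averaged 1.33 ± 0.487 CPM in the circSlc45a4 knockdown and 0.233 ± 0.121 CPM in scramble (2.43 ± 0.52, adjusted p = 0.00369). Tmem163, a zinc transporter, fell to 3.20 ± 0.101 CPM in the circSlc45a4 knockdown and 3.59 ± 0.294 CPM after Slc45a4 mRNA knockdown, against 6.45 ± 0.945 CPM in scramble (-1.02 ± 0.18 and -0.85 ± 0.18, adjusted p = 9.14e-04 and 0.00489). The actin bundler Pls3 was the other one lower in the circSlc45a4 knockdown, at 11.6 ± 0.885 CPM against 18.6 ± 1.89 CPM in scramble (-0.68 ± 0.15, adjusted p = 0.00382). The remaining genes higher in the circSlc45a4 knockdown, named here after their values were seen, were Kcnab1, Inpp4b, Cdh10 and Serpini1, at 1.63, 1.40, 0.46 and 0.30 on the log2 scale. Kcnab1 was read 27, 20 and 24 times in the circSlc45a4 knockdown, 6, 5 and 6 times after Slc45a4 mRNA knockdown and 4, 9 and 2 times in scramble. It had to be high in the circSlc45a4 knockdown to be tested, so its place in the count and the median of this list is no support for them.

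Inpp4b, a lipid phosphatase, moved in opposite directions in the knockdowns. It averaged 1.65 ± 0.391 CPM in the circSlc45a4 knockdown and 0.120 ± 0.0432 CPM after Slc45a4 mRNA knockdown, against 0.617 ± 0.0921 CPM in scramble (1.40 ± 0.37 and -2.35 ± 0.46, adjusted p = 0.0134 and 0.00367). The direct difference was 3.75 ± 0.44 (adjusted p = 7.35e-05), and the 3 groups did not overlap. Groups without overlap made up 43.9% and 36.1% of all genes in the 2 comparisons against scramble and 40.1% in the direct one. Inpp4b was read only 4, 3 and 6 times after Slc45a4 mRNA knockdown and 11, 19 and 23 times in scramble. Its fall there and the direct difference therefore rest on few reads. Cdh10, a cadherin, was higher in both, at 29.2 ± 2.15 CPM in the circSlc45a4 knockdown and 34.8 ± 6.43 CPM after Slc45a4 mRNA knockdown, against 21.3 ± 0.857 CPM in scramble (0.46 ± 0.13 and 0.71 ± 0.13). Cplx3 and Trh, the list's members not tested, had 0 counts in every scramble library. Cplx3 averaged 0.0373 CPM in the circSlc45a4 knockdown and 0.0272 CPM after Slc45a4 mRNA knockdown, and Trh averaged 0 and 0.0465 CPM, so these markers were at or near 0 throughout. No cell was identified as a subplate neuron in these bulk data, and the label is that of the genes.

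The calls of this list changed when single libraries were left out and when the Xist level entered the fit. Xist is tied to the groups, so its part in these calls was not tested. Without any one library 2 to 4 of its genes were higher in the circSlc45a4 knockdown and 2 to 3 lower. Inpp4b lost its call there without circSlc45a4 knockdown replicate 2 (1.27, adjusted p = 0.0534) and Cdh10 without circSlc45a4 knockdown replicate 1 (0.42, adjusted p = 0.0560). Kcnab1 lost it when any single library except scramble replicate 2 was left out (1.18 to 2.22 over all 6, adjusted p between 0.0488 and 0.191), and Serpini1 when any except scramble replicate 1 was left out (0.27 to 0.35, adjusted p between 0.0374 and 0.135). After Slc45a4 mRNA knockdown 1 to 2 were higher and 2 to 3 lower without any one library, and the gene lost there was Serpini1 (0.32, adjusted p = 0.0375; 0.22 to 0.43, adjusted p between 0.00834 and 0.143 over the 6 libraries left out, not called without Slc45a4 mRNA knockdown replicate 1 or 2 or scramble replicate 2 or 3). With the Xist covariate the calls of this list ended in both knockdowns against scramble, and Serpini1 stood at -0.01 in the circSlc45a4 knockdown. In that fit 2 of the 5 markers themselves, Nxph4 and Ccn2, remained called in the circSlc45a4 knockdown.

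**Figure D3:**
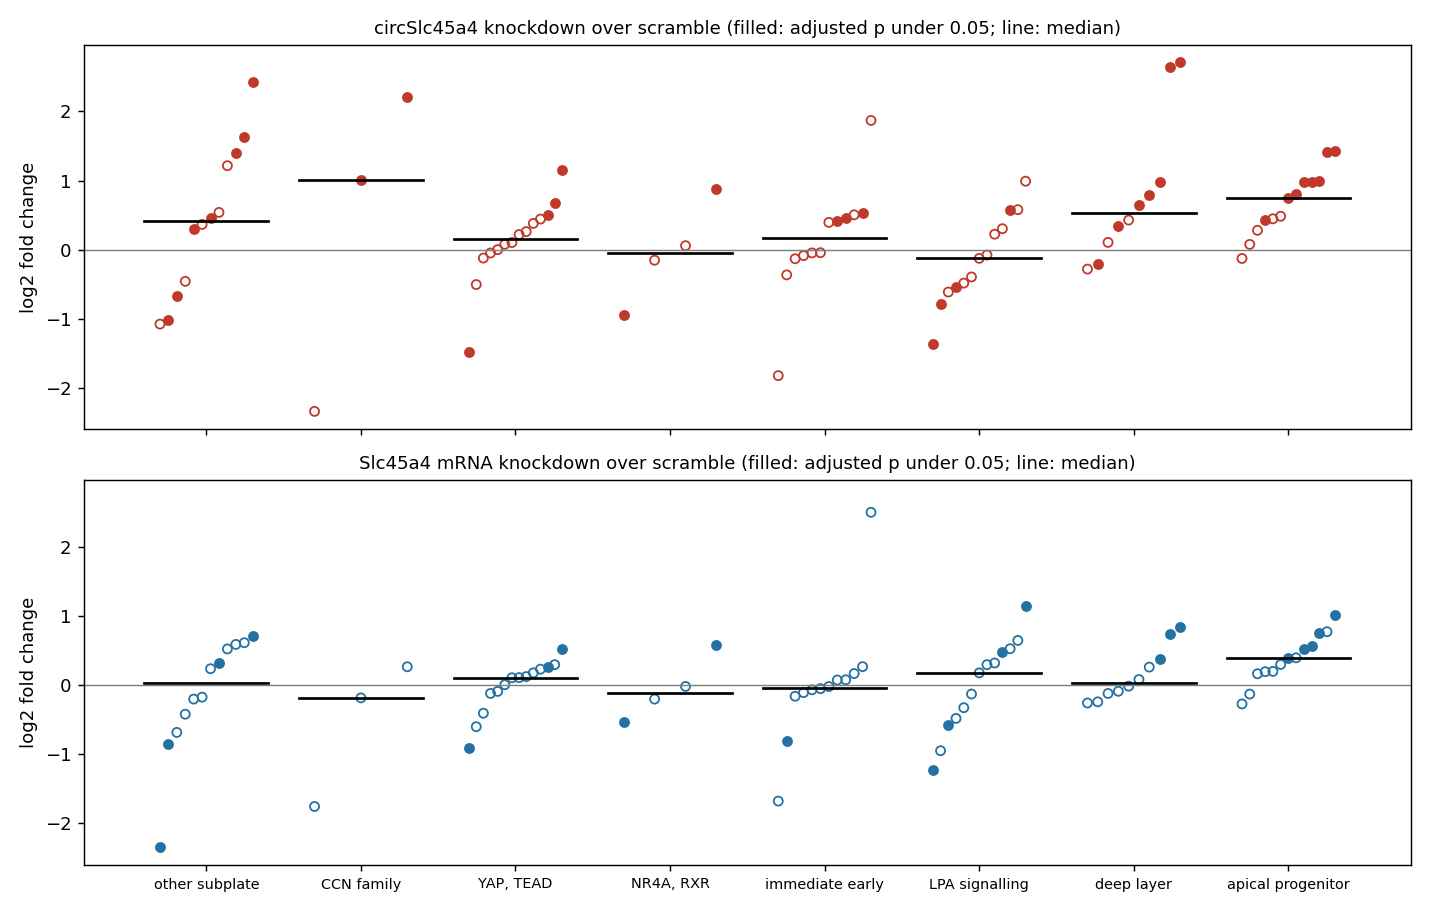
Log2 fold change (vertical axis) of each tested gene of the lists related to the markers, in the circSlc45a4 knockdown over scramble (upper panel) and the Slc45a4 mRNA knockdown over scramble (lower panel); filled points have an adjusted p under 0.05 and lines are list medians. The lists drawn are other subplate, CCN, YAP and TEAD, NR4A and RXR, immediate early, LPA signalling, deep-layer and apical progenitor genes; values lie on both sides of 0 in most, and in the upper panel the medians of the CCN, deep-layer and apical progenitor genes are 1.01, 0.54 and 0.75.

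Moxd1 and Ccn2 lie 292.652 kb apart on chromosome 10, with 3 annotated genes wholly between them. Within 500 kb of the span from one to the other the table had 43 genes, both markers included. Of the 43, 26 were protein coding, 9 were tested and 23 had 0 counts in all libraries. Both markers were higher in the circSlc45a4 knockdown, and the tested neighbours did not all follow. Stx7, a syntaxin next to Moxd1, was higher, at 0.40 ± 0.08 (adjusted p = 0.00310; 0.25 and adjusted p = 0.276 with the Xist covariate). The ribosomal protein gene Rps12 and the transporter gene Slc18b1 were lower, at -0.45 ± 0.08 (adjusted p = 0.00145) and -0.46 ± 0.11 (adjusted p = 0.00940). Med23, a Mediator subunit on the far side of Ccn2, stood at -0.02 ± 0.07, and Enpp3 and the pseudogene Gm15272 did not pass the test.

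**Figure D4:**
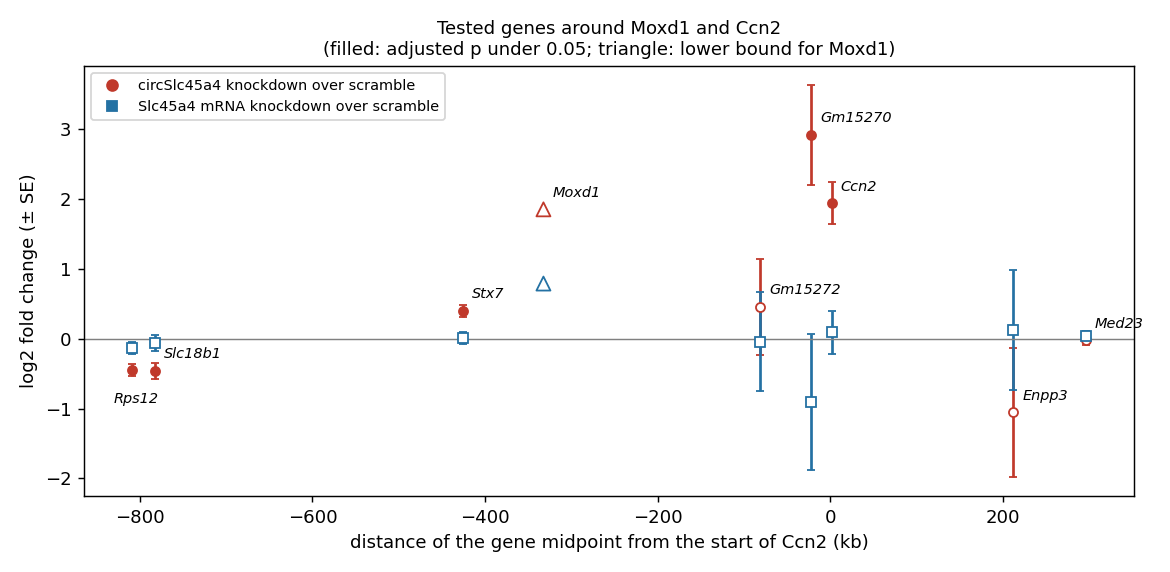
Log2 fold change (± SE) of the tested genes around Moxd1 and Ccn2 against the distance of each gene's midpoint from the start of Ccn2 in kb, for the circSlc45a4 knockdown and the Slc45a4 mRNA knockdown over scramble; filled points have an adjusted p under 0.05 and triangles are lower bounds for Moxd1. Ccn2 (1.94) and the overlapping Gm15270 (2.92) stand above 0 in the circSlc45a4 knockdown, Rps12 (-0.45) and Slc18b1 (-0.46) below it. The value of Gm15270 rests on 1 to 3 reads in each scramble library and is no bound.

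The nearest protein coding neighbours of the other markers were examined in the same way. Shmt2, a mitochondrial enzyme of serine metabolism 3029 bases from Nxph4, was lower in the circSlc45a4 knockdown, at 66.7 ± 4.25 CPM against 104 ± 6.65 CPM in scramble (-0.64 ± 0.09, adjusted p = 1.50e-04). Lrp1, an endocytic receptor 3602 bases away on the other side, was higher (0.41 ± 0.10, adjusted p = 0.00904), a call that ended without circSlc45a4 knockdown replicate 1 (0.32, adjusted p = 0.0565) and with the Xist covariate (0.53, adjusted p = 0.0755). Kcnj3, a potassium channel gene 1508685 bases from Nr4a2, was higher in both knockdowns (1.12 ± 0.17 and 0.80 ± 0.17, adjusted p = 3.37e-04 and 0.00576). Gpd2, 113632 bases away on the other side, was lower in the circSlc45a4 knockdown (-0.59 ± 0.11, adjusted p = 0.00134; -0.56 and adjusted p = 0.0858 with the covariate). The neighbours of Lpar1, Musk and Olfr267, were too low to test.

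The genes whose levels followed each marker most closely over the 9 libraries were ranked by Pearson's r of log2 CPM among 11394 genes (11395 for Moxd1), as a description, since the 9 libraries share 3 groups and r follows the group means. For Nxph4 they were Sstr3, a somatostatin receptor (r = 0.983), Tmem214 (0.981) and Cst3 (0.980). Sstr3 averaged 59.3 ± 10.2 CPM in the circSlc45a4 knockdown, 22.6 ± 1.69 CPM after Slc45a4 mRNA knockdown and 26.4 ± 1.24 CPM in scramble. For Ccn2 they were Eppk1 (0.980), Kcnip3 (0.974) and Nynrin (0.974). Eppk1, an epithelial plakin, averaged 6.97 ± 2.24 CPM in the circSlc45a4 knockdown, 0.0923 CPM after Slc45a4 mRNA knockdown and 0.0617 CPM in scramble. For Moxd1 they were Atp6v1f (0.991), Fbxl12 (0.985) and Ctbp2 (0.984), for Nr4a2 they were Rev1 (0.961), Zcchc2 (0.956) and Jun (0.937), and for Lpar1 they were Actr3b (0.933), Kbtbd2 (0.926) and Cdc42se2 (0.922). Jun is thus the one immediate early gene among the nearest genes of Nr4a2.

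Markers of other cells that carry these genes, or that the sort could hold, moved with the groups. Of 10 deep-layer neuron genes 6 passed the test as higher and 1 as lower after circSlc45a4 knockdown, and their summed level was 1258 to 1513 CPM there against 968 to 1199 CPM in scramble. Without any one library 4 to 7 of them were higher. The lower one was the transcription factor gene Sox5 (-0.21 ± 0.07, adjusted p = 0.0472), and its call ended whichever library was left out (-0.24 to -0.19, adjusted p between 0.0511 and 0.133) and with the Xist covariate (-0.34, adjusted p = 0.102). Foxp2, a factor of layer 6 neurons, was read at 129 ± 26.7 CPM in the circSlc45a4 knockdown and 20.6 ± 3.39 CPM in scramble (2.64 ± 0.16, adjusted p = 5.79e-07), and Crym, a deep-layer crystallin, at 3.62 ± 0.437 and 0.540 ± 0.166 CPM (2.71 ± 0.32, adjusted p = 5.22e-05). Of 13 apical progenitor genes 8 were higher and 0 lower, with sums of 1813 to 2104 CPM in the circSlc45a4 knockdown and 1304 to 1406 CPM in scramble, led by the radial glia marker Fabp7 (1.42 ± 0.11, adjusted p = 2.88e-06). Of 8 genes of the pallial cortex, which check the labelled tissue, all were tested and 3 were higher and 0 lower, with sums of 3013 to 3203 CPM in the circSlc45a4 knockdown and 2879 to 3625 CPM in scramble. One of them was lower without circSlc45a4 knockdown replicate 3 or scramble replicate 3.

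The summed level of 8 Cajal-Retzius genes was 256, 143 and 78.5 CPM in replicates 1, 2 and 3 of the circSlc45a4 knockdown, 23.3 to 35.2 CPM after Slc45a4 mRNA knockdown and 35.0 to 75.1 CPM in scramble. In the circSlc45a4 knockdown this sum ran in the same order over the 3 libraries as Nxph4. The order is not particular to this list. The sums of the deep-layer genes (1513, 1355 and 1258 CPM) and of the pallial cortex genes (3203, 3132 and 3013 CPM) shared it, and that of the apical progenitor genes ran the other way. Most of these reads were from Reln, the gene of the secreted protein reelin (150 ± 87.8 CPM in the circSlc45a4 knockdown and 33.7 ± 17.8 CPM in scramble; 2.15 ± 0.41, adjusted p = 0.00182), a call that ended with the Xist covariate (1.64, adjusted p = 0.157). Ebf3 of the same list was lower there (-2.15 ± 0.27, adjusted p = 8.25e-05), and Trp73, which defines these cells, was read at 0.460 ± 0.212 CPM in the circSlc45a4 knockdown and 0.456 ± 0.261 CPM in scramble.

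Claustrum genes, which bear on Nr4a2, summed to 69.7 to 85.2 CPM in the circSlc45a4 knockdown, 109 to 133 CPM after Slc45a4 mRNA knockdown and 139 to 140 CPM in scramble, and of the 4 genes tested 2 fell after circSlc45a4 knockdown and 0 rose. Ntng2, a netrin-G of the claustrum, stood at 51.7 ± 7.58 CPM there and 103 ± 2.39 CPM in scramble (-0.998 ± 0.11, adjusted p = 3.77e-05). Meningeal fibroblast genes, which bear on Ccn2, summed to 0.827 to 0.983 CPM in the circSlc45a4 knockdown and 1.64 to 1.96 CPM in scramble, with Foxd1 at 0 in all libraries. Endothelial genes summed to 0.604 to 1.54 CPM and 1.56 to 4.51 CPM in those groups. Both sums were also below scramble after Slc45a4 mRNA knockdown, at 0.647 to 1.136 CPM (meningeal) and 0.949 to 1.246 CPM (endothelial). Ccn2 averaged 2.28 CPM there and 2.12 CPM in scramble. Only 1 of the 10 meningeal and 3 of the 9 endothelial genes were tested. The other genes of these lists were too low to test, so the sums cannot bear on the source of Ccn2. Pericyte genes summed to 29.98 to 34.6 CPM in the circSlc45a4 knockdown and 20.1 to 29.6 CPM in scramble. Of these 8 genes 3 were tested, and 1 was higher and 0 lower. Pdgfrb of this list was higher in the circSlc45a4 knockdown, at 3.71 ± 0.589 CPM against 1.43 ± 0.291 CPM in scramble (1.39 ± 0.26, adjusted p = 0.00167). Microglia genes summed to 6.66 to 11.8 CPM and 2.44 to 4.26 CPM, with 2 of 7 tested genes higher (0 without circSlc45a4 knockdown replicate 2 or scramble replicate 3), and oligodendrocyte precursor genes to 1.99 to 2.46 CPM and 0.583 to 1.39 CPM, with 1 of 2 higher. Ventral inhibitory neuron genes summed to 2.35 to 3.98 CPM and 3.92 to 7.81 CPM, with 0 of 6 tested genes higher and 3 lower. Of these lower calls 0 were made without scramble replicate 2 and 1 without scramble replicate 3 or any one circSlc45a4 knockdown library. After Slc45a4 mRNA knockdown, where Moxd1 was the one marker called, the sums were 985 to 1244 CPM for deep-layer genes, 1371 to 1706 CPM for apical progenitor genes, 3.60 to 8.28 CPM for microglia genes and 20.5 to 25.8 CPM for pericyte genes. The part of these cells in the levels of the markers was not tested.

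**Figure D5:**
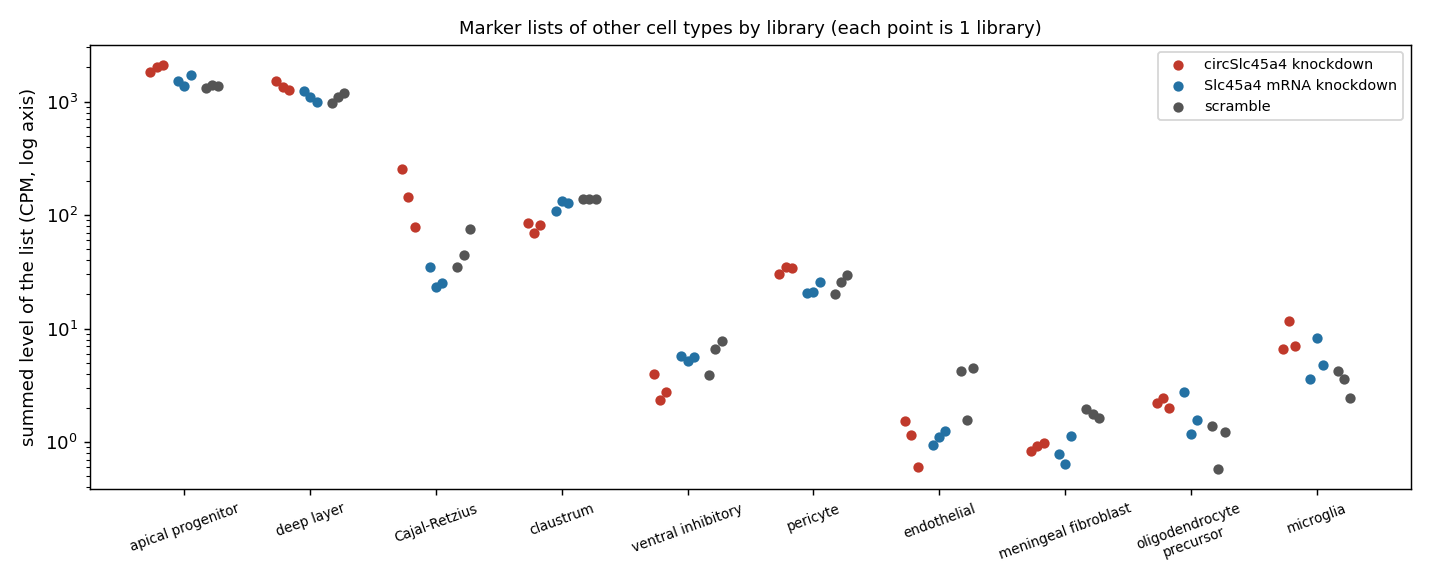
Summed level of each marker list of other cell types (CPM, log axis) in each library of the circSlc45a4 knockdown, the Slc45a4 mRNA knockdown and scramble. The Cajal-Retzius sum (78.5 to 256 CPM) and the apical progenitor sum (1813 to 2104 CPM) are highest in the circSlc45a4 knockdown, and the meningeal sum (0.827 to 0.983 CPM) is below that of scramble there.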

How the data were processed

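The deposited table held whole-number read counts per gene for 9 libraries, which the authors made from polyA-selected RNA of sorted GFP+ cells. Build mm10, STAR 2.4.2a, bcl2fastq 2.17.1.14 and DESeq2 appear in the submitters' processing notes. Which tool counted the reads, and with what strand setting, is not given in the sources used here. Of 53379 Ensembl IDs 53274 gained a symbol and coordinates from GENCODE M21 (GRCm38), and 105 did not.

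Counts were fitted with edgeR 4.0.16 in R 4.3.3. Genes were kept by filterByExpr (minimum count 10), scaled by TMM and tested by the quasi-likelihood F test with 1 term per group over all 9 libraries, which leaves 6 residual degrees of freedom. P-values were adjusted by Benjamini-Hochberg over 17760 genes, and calls were made at 0.05. Each SE was taken as the size of the log2 difference over the root of its F value. CPM are counts scaled to a TMM-adjusted total of 1000000 over tested genes. Replicates varied with a biological coefficient of variation of 13.9%. For a limit, a count of 0 was set to a limit of 3 counts, 0.0671 to 0.143 CPM per library. The steps were tested on simulated counts.

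The members and lists were chosen with earlier results of these data known. Genes named are the members, up to 3 genes of each list with the smallest p in a comparison, relatives of the members, the 3 genes most like each member by Pearson's r (prior count 2, average log2 CPM of at least 1, no predicted gene models), and neighbours within 500 kb of Moxd1 and Ccn2 or next to the other members. Alternatives were RLE and upper-quartile scaling, no filter, 1 CPM in 3 libraries, a replicate block, an Xist covariate, 2 groups at a time, thinning to 21073174 counts, each library left out, limma-voom 3.58.1 and DESeq2 1.42.0. Nothing beyond the label of biological replicate says that libraries came from separate litters, so p-values measure the spread between these libraries. Some results are not reported here.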

Additional observations from a re-analysis of the deposited data

Results flagged for a closer look

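For 25 genes, the effect of the circSlc45a4 knockdown differed from that of the Slc45a4 mRNA knockdown when the knockdowns were compared directly. In 24 of the 25 the libraries of the knockdowns did not overlap, where 40.1% of all genes, called or not, had no overlap. The 25 were picked by their calls in this same comparison, so their lack of overlap is no further support for them. Among the subplate markers the difference, circSlc45a4 knockdown minus Slc45a4 mRNA knockdown on the log2 scale, was 1.68 for Nxph4 and 1.85 for Ccn2. Of the other subplate genes 3 were called higher and 2 lower, at 3.75 for Inpp4b, 1.84 for Pde1a, 1.83 for Kcnab1, -1.32 for Gabra5 and -0.98 for Hs3st4, whose libraries overlapped. Without any one library 1 to 2 of them were called higher and 0 to 1 lower. Over all genes 13.8% were called higher and 12.3% lower in this comparison. The calls of Kcnab1 and Gabra5 ended whichever library of the knockdowns was left out, and that of Hs3st4 without circSlc45a4 knockdown replicate 1 or 3 or Slc45a4 mRNA knockdown replicate 1 or 2. Kcnab1 had to be high in the circSlc45a4 knockdown to be tested, so its call is no support here either. The call of Pde1a ended without circSlc45a4 knockdown replicate 1 (1.76, adjusted p = 0.0513) or 2 (1.62, adjusted p = 0.0557) and without Slc45a4 mRNA knockdown replicate 3 (1.59, adjusted p = 0.0564). Of genes related to or near Ccn2 the difference was 1.19 for Ccn1, 1.94 for Ccn4, 0.85 for Axl, 0.40 for Lats1, 0.53 for Ajuba, -0.25 for Tead2, 3.82 for the antisense transcript Gm15270 and 0.39 for Stx7. Gm15270 had at most 2 reads in a library of the Slc45a4 mRNA knockdown. Among the 3 groups it passed the filter on low counts only through the circSlc45a4 knockdown. Among immediate early genes it was 0.52 for Dusp1, 0.76 for Btg2 and 0.39 for Ier2, and in LPA signalling -0.66 for Plppr2 and -1.01 for the receptor gene Lpar6. In deep-layer genes it was 2.56 for Foxp2, 2.83 for Crym, 1.03 for Tle4, 0.52 for Tbr1 and -1.13 for Ldb2. Kcnab1, Gabra5, Hs3st4, Ajuba, Tead2, Ier2, Tle4, Tbr1 and Ldb2 were named here after their values were seen, since they complete the calls of their lists. The calls of Ajuba, Tead2, Ier2 and Tbr1 each ended without one or another of several single libraries, circSlc45a4 knockdown replicate 1 among them for each, and that of Tead2 also ended with the Xist covariate (-0.22, adjusted p = 0.0885).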

How the results depend on the processing

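Over all alternatives the results for the 5 markers and the counts of genes called gave 280 values, of which 267 kept their direction and their side of the threshold. Nxph4 and Ccn2 kept their calls in the circSlc45a4 knockdown under every alternative run, at 1.12 to 1.55 and 1.80 to 2.81 on the log2 scale. The Xist covariate took the genes called to 1411, against 4814, in the circSlc45a4 knockdown and to 833, against 3200, in the Slc45a4 mRNA knockdown. It put the fitted log2 fold change of Moxd1, which depends on the prior count and is no bound, at 6.02 (adjusted p = 0.0571) and 5.10 (adjusted p = 0.129). It ended 23 of 40 calls of named genes in the circSlc45a4 knockdown, 9 of 15 in the Slc45a4 mRNA knockdown and 1 of 23 between the knockdowns, and put Serpini1 at -0.0080 in the circSlc45a4 knockdown. Nr4a2 was called there without the low-count filter (0.42, adjusted p = 0.0239). Leaving out single libraries gave 3386 to 4248 genes called in the circSlc45a4 knockdown, 1760 to 2764 in the Slc45a4 mRNA knockdown (fewest without scramble replicate 2) and 3059 to 4101 between the knockdowns (4632 with all, fewest without circSlc45a4 knockdown replicate 1). It gave -0.0243 to 0.17 for Lpar1 in the circSlc45a4 knockdown, and in the Slc45a4 mRNA knockdown -0.28 to 0.38 for Ccn2 and -0.0274 to 0.27 for Nr4a2. With limma-voom Ccn2 stood at -0.00368 there. The cause of these changes was not tested. Xist and the knockdowns can be told apart only through replicate 3 of the Slc45a4 mRNA knockdown, so calls that ended with the covariate do not show an effect of Xist. Moxd1 was too low to test with 1 CPM in 3 libraries, after thinning, and with 2 groups only in the Slc45a4 mRNA knockdown, and DESeq2 gave it no adjusted p there. At its counts of 4 to 18 reads, depth limits what can be said of single libraries.

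Same-numbered libraries did not deviate together throughout (correlations of -0.14 to 0.12), so the numbers do not pair the samples. Between the knockdowns each library correlated best with its own number, a hint from the data only. With the replicate block 4412, 2713 and 4189 genes were called in the 3 comparisons, and no call of the 5 markers changed, while 3 of 40 calls of named genes ended in the circSlc45a4 knockdown, 1 of 23 between the knockdowns and 0 in the Slc45a4 mRNA knockdown.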
